A study of Mus musculus with 4 samples.

Results

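The genes described here are 32 regulators of stem cell self-renewal and quiescence other than the core stem cell factors. They are transcription factors such as Mecom, Meis1, Hlf and Prdm16, surface and signalling genes such as Tek, Angpt1 and Robo4, the FOXO factors, immediate early factors of quiescent cells, and the growth regulators Tsc1, Stk11 and Smad4. Each was taken by its symbol, and all 32 were listed among the 24015 symbols counted in each library. RNA-seq counts were compared between 2 control and 2 caNIK libraries made from sorted stem and progenitor cells of mouse blood formation (HSPC). In caNIK mice, Vav-iCre, a recombinase active throughout the blood system, excised a loxP-flanked stop cassette in front of NIK at the Rosa locus. The NIK encoded there is a mutant that TRAF3 cannot target, so that it escapes the degradation that normally keeps non-canonical NF-kB signalling low. Control mice are described as control only, and the sources used here do not give whether they carried either allele. The same holds for the tissue, the sort markers, the age and number of the animals, and whether the libraries came from separate animals. Their p-values therefore measure the spread between these libraries, which may be technical.

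Adult stem cells are kept by a balance between rare division and rapid recruitment. Transcription factors such as MECOM, PRDM16, HLF and MEIS1 hold the stem cell program, and angiopoietin-1 acting on its receptor TIE2 (encoded by Tek) is known to favour quiescence in the niche. FOXO factors, which are held in the cytoplasm when AKT is active, induce genes against oxidative stress. LKB1 (Stk11) and the TSC complex restrain growth through AMPK and mTORC1, and loss of either is known to drive stem cells out of quiescence and exhaust them.

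Most of these genes were at lower levels in caNIK HSPC, and those with the largest falls were Robo4, Myct1, Hlf and Fgd5. Of 31 genes that passed the filter on low counts, 8 fell (Robo4, Myct1, Hlf, Fgd5, Eya1, Gfi1, Angpt1 and Foxo4), 2 rose (Tgm2 and Smad4) and 21 did not pass edgeR's quasi-likelihood test at an adjusted p under 0.05. Among all 14191 tested genes 22.0% passed, 13.8% as higher and 8.21% as lower. The median log2 fold change, caNIK against control, was -0.52 over the 31 genes and 0.004 over all tested genes. Values below 0, passed or not, were seen in 21 of the 31 genes and in 7051 of all 14191. Levels in the caNIK libraries were both below the control libraries in 17 of the 31 and both above in 7, and overlapped in 7. Over all tested genes, the groups did not overlap in 64.9%, with caNIK above in 33.3% and below in 31.6%. Clec1a, a C-type lectin of endothelium and stem cells, was the one gene left out by the filter. It had 8 and 12 reads in the control libraries and 4 and 0 in caNIK, a control to caNIK ratio of 4.6 with an exact 95% interval of 1.54 to 18.5 that covers counting error only. In bulk samples, fewer cells that express a gene and less of its RNA per cell cannot be told apart.

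**Figure D1:**
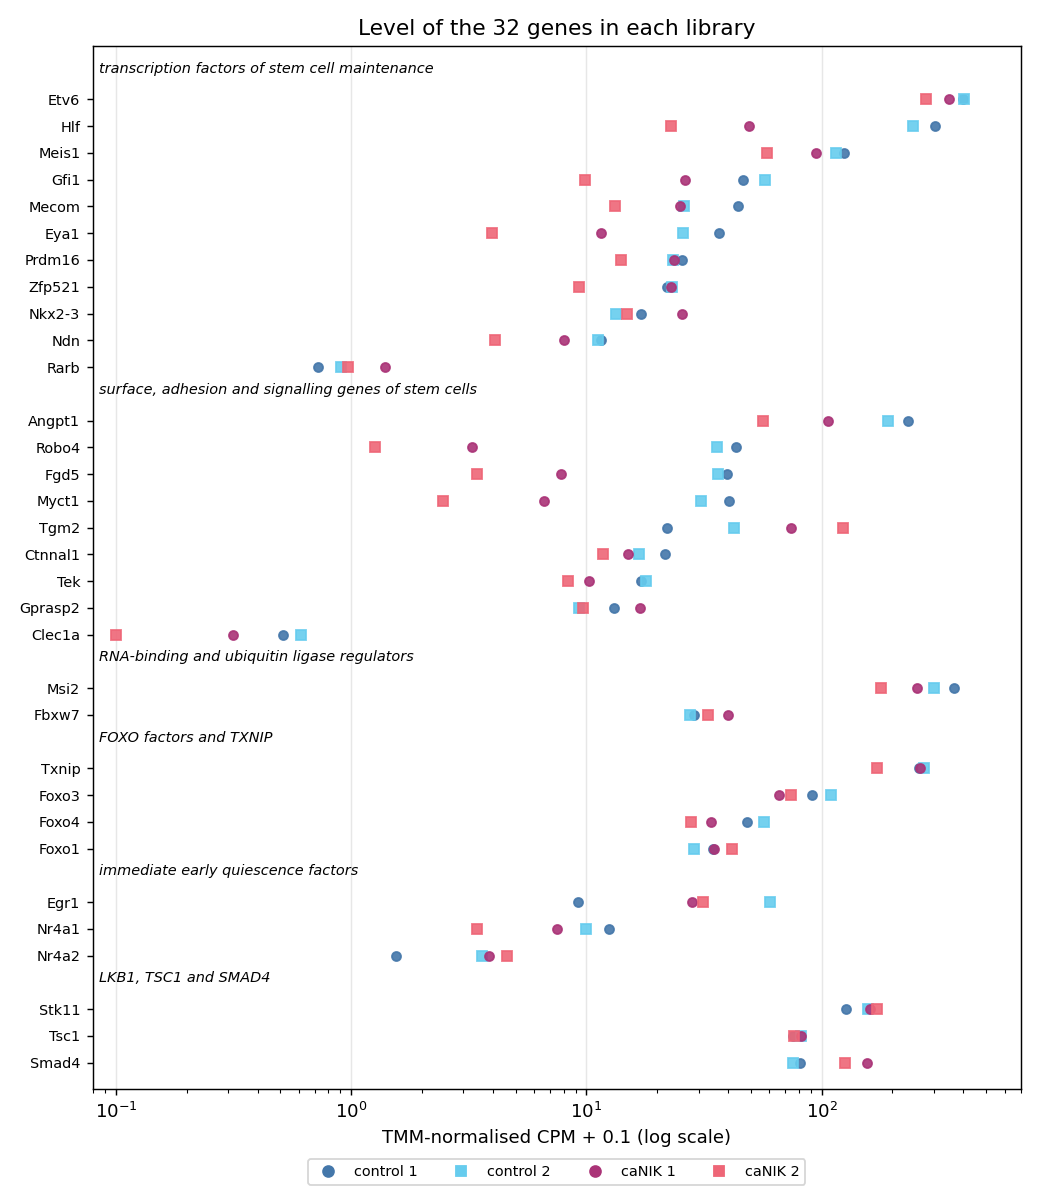
Level of each of the 32 genes in the 4 libraries, grouped by role, as TMM-normalised CPM plus 0.1 on a log axis; circles are replicate 1 and squares replicate 2 of control (blue) and caNIK (red). In the 8 genes that fell, caNIK replicate 2 lay lowest, from 1.16 CPM for Robo4 to 56.5 CPM for Angpt1.

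**Figure D2:**
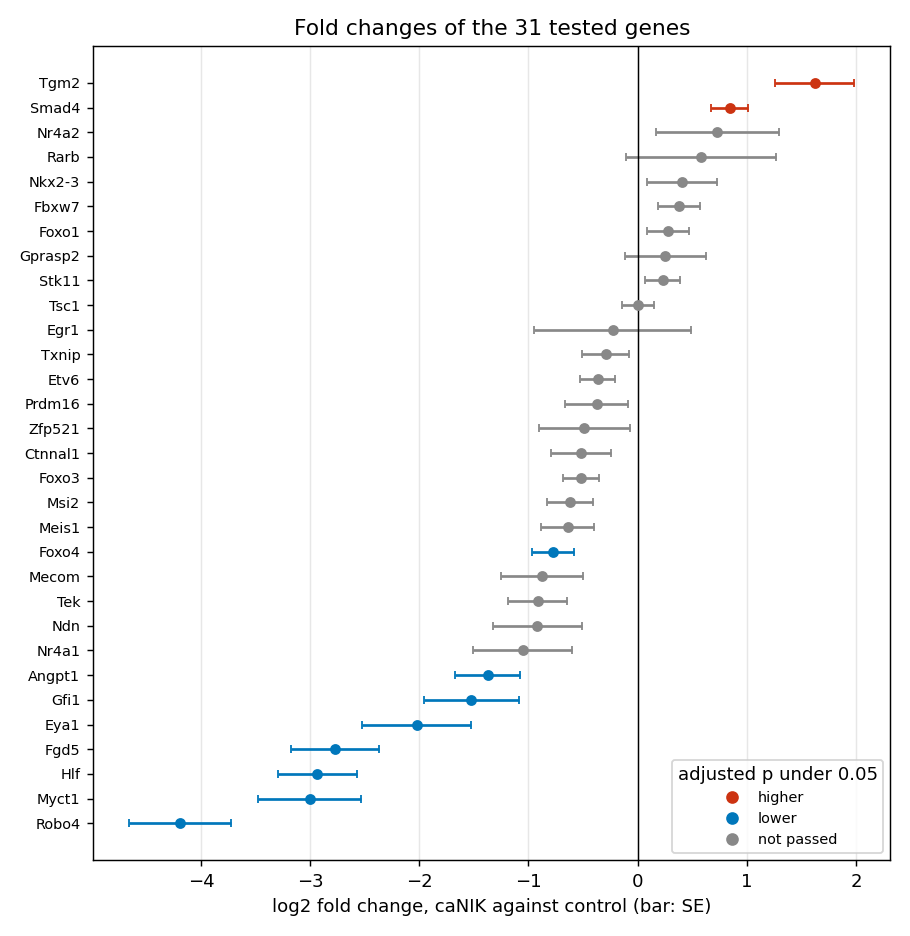
Log2 fold changes, caNIK against control, with SE from edgeR for the 31 tested genes; colour marks the test at an adjusted p under 0.05. Values run from -4.19 for Robo4 to 1.62 for Tgm2, and 21 of 31 lie below 0, against 7051 of all 14191 tested genes.

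The genes with the largest falls were a group of surface and signalling genes together with Hlf. Robo4, an endothelial roundabout receptor that also helps hold stem cells in their niche, had 43.0 and 35.8 CPM (read counts set against TMM-scaled library size) in control replicates 1 and 2, and 3.17 and 1.16 CPM in caNIK replicates 1 and 2. That was 18.2-fold lower on the group means, or -4.19 on the log2 scale with an SE of 0.46 (edgeR adjusted p = 0.00161). Hlf, a PAR-family bZIP factor that marks stem cells, had 303 and 246 CPM in control and 49.0 and 22.8 CPM in caNIK, which was 7.63-fold lower (-2.93 ± 0.36, edgeR adjusted p = 0.00251). Fgd5, a guanine nucleotide exchange factor used to mark stem cells, had 39.4 and 36.1 CPM in control and 7.73 and 3.33 CPM in caNIK (-2.77 ± 0.40, edgeR adjusted p = 0.00472). Myct1, a MYC target gene of endothelium and stem cells, had 40.2 and 30.7 CPM in control and 6.50 and 2.36 CPM in caNIK (-3.01 ± 0.47, edgeR adjusted p = 0.00636). In each of these 4 genes the highest caNIK library lay far below the lowest control library. They also passed in all 12 alternatives, among them a test against a fold change of 1.5, with a highest adjusted p of 0.0101, for Myct1. In the alternatives that leave out 1 library, 1 group holds a single library, the spread comes from the other group alone, and the lone library is assumed to vary like it.

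The promoters of these 4 genes, which fell together, were read as the 250 bases before the RefSeq start (build GRCm38.p6, 5′ to 3′ on the strand of the gene). Capitals mark every match, on either strand, to the motifs searched. These were the NF-kB consensus, the FOXO site GTAAACA, the cyclic AMP response element TGACGTCA and its core TGACG, the serum response element, an ETS site CNGGAAG and a GATA site AGATAAG.
Robo4 (chr9:37401722-37401971, plus strand): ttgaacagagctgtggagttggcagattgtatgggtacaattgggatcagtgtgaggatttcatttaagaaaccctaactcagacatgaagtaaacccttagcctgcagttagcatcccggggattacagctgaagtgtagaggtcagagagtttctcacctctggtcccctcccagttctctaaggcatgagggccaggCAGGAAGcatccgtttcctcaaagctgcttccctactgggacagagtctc
Myct1 (chr10:5593478-5593727, plus strand): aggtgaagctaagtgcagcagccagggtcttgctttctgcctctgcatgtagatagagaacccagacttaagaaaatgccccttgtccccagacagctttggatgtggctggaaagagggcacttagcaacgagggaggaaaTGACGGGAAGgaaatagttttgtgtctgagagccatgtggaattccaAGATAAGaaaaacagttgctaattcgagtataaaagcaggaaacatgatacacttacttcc
Hlf (chr11:90390918-90391167, minus strand): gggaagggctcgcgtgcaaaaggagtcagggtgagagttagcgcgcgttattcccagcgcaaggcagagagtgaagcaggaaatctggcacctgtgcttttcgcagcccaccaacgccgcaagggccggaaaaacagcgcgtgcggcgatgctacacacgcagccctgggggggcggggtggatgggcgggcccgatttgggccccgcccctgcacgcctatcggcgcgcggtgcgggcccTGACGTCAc
Fgd5 (chr6:91978715-91978964, plus strand): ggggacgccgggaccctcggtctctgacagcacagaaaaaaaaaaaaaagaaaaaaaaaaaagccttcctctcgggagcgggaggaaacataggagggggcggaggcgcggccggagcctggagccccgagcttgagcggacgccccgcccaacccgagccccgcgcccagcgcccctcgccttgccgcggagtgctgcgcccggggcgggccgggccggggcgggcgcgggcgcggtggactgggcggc
Robo4 held 1 ETS site, Myct1 a GATA site and an ETS site that overlaps a TGACG core, Hlf the full cyclic AMP response element, which holds that core on both strands, and Fgd5 no match. Of the 32 genes 24 had a promoter in the RefSeq table, in 30 windows, some of which overlap. Those without one were Clec1a, Zfp521, Egr1 and the called genes Eya1, Angpt1, Foxo4, Tgm2 and Smad4. The ETS site lay in 7 of those 30 windows and in 26.6% of all 32851 windows, the GATA site in 1 and 2.74%, the TGACG core in 13 and 17.8%, and the full element in 4 and 1.55%. The 4 windows with the full element were that of Hlf and 3 overlapping ones of Msi2. The 13 windows with the TGACG core belonged to 11 of the 24 genes. The NF-kB consensus lay in 1 window, that of Prdm16, against 3.9% of all windows, and the FOXO site in 1, that of Txnip, against 3.17%. The serum response element was matched in 0 windows of these genes and in 1.47% of all. A match is a description of the letters and not a binding site.

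Among the 11 transcription factors, Hlf, Eya1 and Gfi1 fell (27.3%, against 8.21% of all tested genes). The other 8 did not pass, so 0% rose, against 13.8% of all tested genes. Eya1, a transcriptional coactivator and phosphatase, had 36.5 and 25.7 CPM in control and 11.5 and 3.86 CPM in caNIK (-2.02 ± 0.50, edgeR adjusted p = 0.031). Gfi1, a zinc finger repressor that restrains stem cell proliferation and drives granulocyte development, had 46.1 and 57.1 CPM in control and 26.3 and 9.74 CPM in caNIK (-1.52 ± 0.43, edgeR adjusted p = 0.0488). The caNIK libraries stood below both control libraries in each gene but on the log2 scale differed from each other by more than the control libraries did. The call for Gfi1 was lost with library totals in place of TMM (edgeR adjusted p = 0.0573) and over its 12 alternatives the adjusted p ran from 0.000991 to 0.118. Gfi1 is also a granulocytic gene. Of 15 granulocyte-monocyte markers 4 fell (26.7%, against 8.21% of all tested genes), namely Csf3r, Mpo, Prtn3 and Elane. Another 5 rose (33.3%, against 13.8%), namely Ngp, S100a9, S100a8, Ltf and Camp, and the median log2 fold change was 0.54. The summed level of that list was 1390 to 3331 CPM in control and 454 to 575 CPM in caNIK, and its part in the Gfi1 result was not tested.

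Mecom, the zinc finger oncoprotein EVI1 that is needed for long-term stem cells, had 44.0 and 26.0 CPM in control and 24.9 and 13.2 CPM in caNIK. The highest caNIK value stood just under the lowest control value, and the log2 fold change of -0.88 ± 0.38 did not pass (edgeR adjusted p = 0.15). Meis1, a homeodomain cofactor of HOX proteins, had 124 and 115 CPM in control and 94.5 and 58.3 CPM in caNIK (-0.64 ± 0.24, edgeR adjusted p = 0.106). Etv6, an ETS-family repressor required in adult bone marrow, had 400 and 403 CPM in control and 347 and 277 CPM in caNIK (-0.36 ± 0.16, edgeR adjusted p = 0.157). Ndn, the imprinted growth suppressor necdin, had 11.4 and 11.1 CPM in control and 7.89 and 4 CPM in caNIK (-0.92 ± 0.41, edgeR adjusted p = 0.16). In these 4 genes the groups did not overlap, and the caNIK libraries lay unevenly. Without caNIK replicate 1 each passed, with log2 fold changes of -1.40 for Mecom, -1.03 for Meis1, -0.53 for Etv6 and -1.49 for Ndn (edgeR adjusted p = 0.0437, 0.00884, 0.0299 and 0.0426). Mecom also passed without control replicate 2 (-1.21, edgeR adjusted p = 0.0119). Mecom and Meis1 also passed with no filter on low counts (edgeR adjusted p = 0.0463 and 0.0354).

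Prdm16 and Zfp521, a PR-domain factor that maintains stem cells and a zinc finger antagonist of lineage factors, overlapped between groups. Prdm16 had 25.5 and 23.2 CPM in control against 23.5 and 14.0 CPM in caNIK. Zfp521 had 21.8 and 23.0 CPM in control against 22.8 and 9.16 CPM in caNIK. For both, caNIK replicate 1 stood at the control level and caNIK replicate 2 below it. Nkx2-3, a homeodomain factor, had 17.0 and 13.2 CPM in control and 25.3 and 14.8 CPM in caNIK, and Rarb, a retinoic acid receptor, had 12 and 19 reads in control and 24 and 18 in caNIK. On the log2 scale caNIK differed from control by 0.41 ± 0.32 for Nkx2-3 and by 0.58 ± 0.69 for Rarb (edgeR adjusted p = 0.42 and 0.6). Counts as low as those of Rarb do not settle a difference at this depth, with a caNIK to control ratio of 1.47 and a counting interval of 0.903 to 2.42.

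The ligand and the receptor of the angiopoietin pair stood lower in caNIK, and of these the ligand passed. Angpt1 had 232 and 190 CPM in control and 107 and 56.5 CPM in caNIK, 2.59-fold lower on the means (-1.37 ± 0.30, edgeR adjusted p = 0.0205). Tek had 17.0 and 17.8 CPM in control and 10.2 and 8.24 CPM in caNIK (-0.92 ± 0.27, edgeR adjusted p = 0.0536). The groups did not overlap for Tek, which narrowly missed the threshold and passed in DESeq2 (adjusted p = 0.0219) and limma-voom (0.0449), as well as under 3 further alternatives. A list of other angiopoietin, angiopoietin-like, TIE and roundabout genes, including ligands and interacting receptors, had 9 tested genes. Of these 3 fell (33.3%, against 8.21% of all tested genes) and the remaining 6 did not pass. Apart from Tie1, those that fell were angiopoietin-like genes. Tie1, the partner receptor of TIE2, had 51.0 and 53.9 CPM in control and 6.93 and 5.26 CPM in caNIK (-3.11 ± 0.23, edgeR adjusted p = 0.000422). Angptl4, a secreted angiopoietin-like inhibitor of lipoprotein lipase, had 21.0 and 22.5 CPM in control and 6.34 and 7.62 CPM in caNIK (-1.64 ± 0.26, edgeR adjusted p = 0.00699). Without caNIK replicate 2, 1 of these genes rose.

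Tgm2, the tissue transglutaminase, went the other way, with 22.0 and 42.2 CPM in control and 74.3 and 124 CPM in caNIK. It rose by 1.62 ± 0.36 on the log2 scale (edgeR adjusted p = 0.0221), and the groups did not overlap, although the libraries within each group lay far apart. Without caNIK replicate 2 it did not pass (1.19, edgeR adjusted p = 0.0741). Ctnnal1, the catenin-like protein alpha-catulin that marks stem cells, had 21.5 and 16.6 CPM in control and 14.9 and 11.7 CPM in caNIK, and did not pass (-0.52 ± 0.27, edgeR adjusted p = 0.229). Gprasp2, a receptor sorting protein, overlapped between groups, with 13 and 9.2 CPM in control and 16.9 and 9.59 CPM in caNIK.

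Several of these surface genes are also expressed by endothelium, and a part of the endothelial markers also fell. Of 15 tested endothelial markers 5 fell (33.3%, against 8.21% of all tested genes), namely Tie1, Emcn, Egfl7, Ramp2 and Sox18, and 10 did not pass. Both caNIK libraries stood below both controls in 7 of the 15 and above in 2, and 6 overlapped. Over all tested genes caNIK stood below in 31.6% and above in 33.3%. The summed level of the 19 listed markers was 442 to 458 CPM in control and 157 to 215 CPM in caNIK. The defining genes Cdh5, the endothelial cadherin, and Kdr, a VEGF receptor, were low throughout, and no marker was at 0 in all 4 libraries. Cdh5 had 1.56 and 5.58 CPM in control and 1.24 and 2.70 CPM in caNIK. Kdr had 1.71 and 5.92 CPM in control and 5.10 and 3.86 CPM in caNIK. The part of endothelial RNA in the falls was not tested.

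Of the RNA-binding and ubiquitin ligase regulators, neither passed. Msi2, the Musashi RNA-binding protein that sustains stem cell self-renewal, had 363 and 300.2 CPM in control and 255 and 178 CPM in caNIK (-0.62 ± 0.21, edgeR adjusted p = 0.0837). Among the alternatives in which it passed were DESeq2 (adjusted p = 0.0397), no filter on low counts (edgeR adjusted p = 0.0264) and the fit without caNIK replicate 1 (edgeR adjusted p = 0.0145). Fbxw7, the substrate receptor of the SCF ligase that degrades MYC and other growth drivers, had 28.5 and 27.4 CPM in control and 39.7 and 32.9 CPM in caNIK (0.38 ± 0.19, edgeR adjusted p = 0.211). Among 16 SCF subunits, known FBXW7 substrates and the deubiquitinase that opposes it, 3 fell (18.8%, against 8.21% of all tested genes) and the other 13 did not pass, with a median log2 fold change of -0.20. Myc, one of those substrates, had 282 and 312 CPM in control and 152 and 178 CPM in caNIK (-0.85 ± 0.16, edgeR adjusted p = 0.0109). Usp28, that deubiquitinase, had 36.5 and 31.1 CPM in control and 20.4 and 15.1 CPM in caNIK (-0.93 ± 0.23, edgeR adjusted p = 0.0325). Without caNIK replicate 2, 1 of the list fell, and without caNIK replicate 1, 1 rose.

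The FOXO factors differed among themselves. Foxo4 fell, with 47.9 and 57.0 CPM in control and 33.8 and 27.7 CPM in caNIK (-0.77 ± 0.19, edgeR adjusted p = 0.0313). Foxo3, the member with the strongest known role in stem cell quiescence, had 90.7 and 110 CPM in control and 66.1 and 73.8 CPM in caNIK (-0.52 ± 0.17, edgeR adjusted p = 0.0705). Foxo1 had 34.3 and 28.7 CPM in control and 34.9 and 41.5 CPM in caNIK (0.28 ± 0.20, edgeR adjusted p = 0.363). Both caNIK libraries stood below both controls for Foxo3 and Foxo4 and just above them for Foxo1. The fall of Foxo4 did not pass without control replicate 2 (edgeR adjusted p = 0.166) or without caNIK replicate 2 (0.0822), and Foxo3 passed with library totals in place of TMM (0.0407). Foxo4 and Gprasp2 are X-linked. Each of the 4 libraries held both Xist and Y-linked transcripts, at levels that differed between the libraries. Xist had 1971 and 903 CPM in control and 1190 and 1161 CPM in caNIK, and Y-linked Uty had 5.34 and 17.7 CPM in control and 21.2 and 13.2 CPM in caNIK. Their part in the Foxo4 result was not tested.

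Txnip, the thioredoxin-interacting protein that limits glucose uptake, had 258 and 271 CPM in control and 261 and 171 CPM in caNIK, an overlap between groups. Most of the called genes that FOXO factors are known to induce were higher. Of 20 such targets, 7 rose (35%, against 13.8% of all tested genes) and 1 fell (5%, against 8.21%). The other 12 did not pass, and the median log2 fold change was 0.55. Irs2, an insulin receptor substrate, had 6.69 and 13.3 CPM in control and 134 and 210 CPM in caNIK (4.10 ± 0.39, edgeR adjusted p = 9e-04). Bcl2l11, the pro-apoptotic protein BIM, had 27.9 and 20 CPM in control and 52.8 and 59.4 CPM in caNIK (1.23 ± 0.22, edgeR adjusted p = 0.0094). The 1 that fell was Gabarapl1, of autophagosome formation, with 112 and 108 CPM in control and 42.4 and 40.2 CPM in caNIK (-1.42 ± 0.15, edgeR adjusted p = 0.0013). Without caNIK replicate 2 the number that rose was 4, and without caNIK replicate 1 the number that fell was 2.

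Among the immediate early factors, Egr1 differed most between the control libraries. Egr1, a zinc finger factor that holds stem cells in the niche, had 9.08 and 60.3 CPM in control and 28.0 and 31.3 CPM in caNIK. Both caNIK libraries thus lay between the control libraries (-0.23 ± 0.72, edgeR adjusted p = 0.856). With all else the same, Egr1 passed as lower without control replicate 1 (-1.04, edgeR adjusted p = 0.013) and as higher without control replicate 2 (1.71, edgeR adjusted p = 0.00142). Both fits take their spread from the caNIK pair, which lay close together, and hold none of the difference between the control libraries. In limma-voom its value was above 0 and did not pass (0.24, adjusted p = 0.852). Control replicate 2 was also high in 3 other serum-responsive genes, which were named after their values were seen. Fos had 7.78 and 74.4 CPM in control and 22.5 and 5.59 CPM in caNIK. Jun had 17.1 and 128 CPM in control and 39.7 and 10.3 CPM in caNIK, and Fosb 0.934 and 37.4 CPM in control and 4.08 and 0.386 CPM in caNIK. In each of these 4 genes control replicate 2 was the highest of the 4 libraries.

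Nr4a1 and Nr4a2, orphan nuclear receptors that restrain stem cell division, were not highest in control replicate 2, unlike Egr1. Nr4a1 had 12.4 and 9.88 CPM in control and 7.41 and 3.33 CPM in caNIK, with no overlap (-1.05 ± 0.45, edgeR adjusted p = 0.149), and it passed without caNIK replicate 1 (-1.74, edgeR adjusted p = 0.0337). Nr4a2 had 1.45 and 3.49 CPM in control and 3.76 and 4.48 CPM in caNIK (0.73 ± 0.57, edgeR adjusted p = 0.408). As for Egr1, its control replicate 2 stood above control replicate 1, but it lay below both caNIK libraries. Of 25 tested other immediate early genes 8 rose (32%, against 13.8% of all tested genes), 3 fell (12%, against 8.21%) and 14 did not pass, with a median of 0.62. Ier5 had 32.8 and 28.6 CPM in control and 192 and 193 CPM in caNIK (2.65 ± 0.16, edgeR adjusted p = 0.000216). Rgs1, a regulator of G protein signalling, had 11.6 and 15.8 CPM in control and 108 and 75.7 CPM in caNIK (2.74 ± 0.25, edgeR adjusted p = 0.000862). Junb had 32.1 and 49.0 CPM in control and 149 and 186 CPM in caNIK (2.05 ± 0.24, edgeR adjusted p = 0.00214). These 3 genes separated the groups in every library, unlike Fos, Fosb, Jun and Egr1. Without control replicate 1, 5 of the list fell, without caNIK replicate 1, 5 rose, and without caNIK replicate 2, 1 fell.

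**Figure D3:**
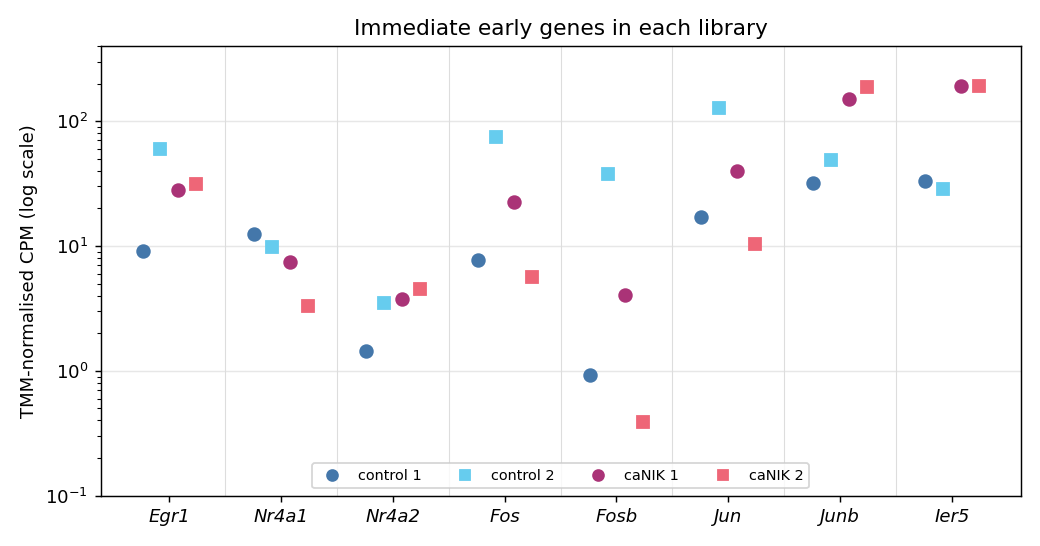
Level of 8 immediate early genes in each library as TMM-normalised CPM on a log axis; circles are replicate 1 and squares replicate 2 of control (blue) and caNIK (red). Control replicate 2 is highest for Egr1 (60.3 CPM), Fos, Fosb and Jun, whereas Junb and Ier5 separate the groups.

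Among the growth regulators Tsc1, Stk11 and Smad4, only Smad4, the common partner of the receptor-activated SMADs, passed. It was higher in caNIK. It had 81.0 and 75.5 CPM in control and 155 and 126 CPM in caNIK, 1.79-fold higher on the means (0.84 ± 0.17, edgeR adjusted p = 0.0143). Without control replicate 2 the adjusted p was 0.0557. Of 19 receptors, SMADs and regulators of the TGF-beta and BMP pathways, 2 fell (10.5%, near the 8.21% of all tested genes) and 17 did not pass, with a median of -0.39. Acvr1b, an activin receptor, had 42.3 and 43.5 CPM in control and 24.2 and 17.1 CPM in caNIK (-1.06 ± 0.23, edgeR adjusted p = 0.0187). Smad5, a BMP-activated SMAD, had 154 and 127 CPM in control and 99.8 and 81.8 CPM in caNIK (-0.63 ± 0.18, edgeR adjusted p = 0.0487). Without caNIK replicate 1 the number that fell was 6, without control replicate 1 it was 1 and 2 rose, and without caNIK replicate 2 it was 1 and 1 rose.

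Tsc1 and Stk11, which restrain mTORC1, did not pass. Tsc1 had 75.6 and 81.7 CPM in control and 81.5 and 76.3 CPM in caNIK, with a log2 fold change of 0.004 ± 0.15 (edgeR adjusted p = 0.989). Stk11 had 127 and 157 CPM in control and 161 and 171 CPM in caNIK (0.23 ± 0.16, edgeR adjusted p = 0.364). Of 26 other genes of the LKB1, AMPK, TSC and mTORC1 pathway, 1 rose (3.85%, under the 13.8% of all tested genes). Another 2 fell (7.69%, near the 8.21% of all tested genes) and 23 did not pass, with a median of -0.10. Ddit4, the stress-induced REDD1 protein that activates the TSC complex, had 12.6 and 9.42 CPM in control and 52.5 and 38.5 CPM in caNIK (2.05 ± 0.26, edgeR adjusted p = 0.00275). Deptor, an inhibitory subunit bound to mTOR, had 34.3 and 44.7 CPM in control and 14.5 and 10.8 CPM in caNIK (-1.65 ± 0.25, edgeR adjusted p = 0.00573). In fits with 1 library left out, 3 rose and 1 fell without control replicate 2, and 1 fell without caNIK replicate 2.

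Other genes enriched in stem cells, and partners of the transcription factors, were set beside these values. Of 38 tested other stem cell genes 11 fell (28.9%, against 8.21% of all tested genes). Another 5 rose (13.2%, near the 13.8% of all tested genes) and 22 did not pass, with a median of -0.49. Mmrn1, a multimerin of platelets and stem cells, had 65.9 and 56.5 CPM in control and 5.05 and 3.23 CPM in caNIK. Hmga2, a chromatin protein of young stem cells, had 329.5 and 276 CPM in control and 67.7 and 53.2 CPM in caNIK. In each of these genes both caNIK libraries stood far below both controls. Without control replicate 2, 8 of the list rose. Of 21 partners of MECOM, PRDM16, MEIS1, ETV6 and GFI1 and relatives of Msi2, 1 rose (4.76%, under the 13.8% of all tested genes). Another 2 fell (9.52%, near the 8.21% of all tested genes) and 18 did not pass, and the median was -0.16. Msi1, the paralog of Msi2, had 0 and 4 reads in control and 281 and 89 reads in caNIK (edgeR adjusted p = 0.00767). Its caNIK to control ratio was 100 with an exact 95% interval of 38.9 to 371, which covers counting error only. Pbx2, a homeodomain partner of MEIS1, had 114 and 122 CPM in control and 77.9 and 68.6 CPM in caNIK (-0.69 ± 0.15, edgeR adjusted p = 0.0219). Between 1 (without control replicate 1) and 4 (without caNIK replicate 1) of that list fell in fits with 1 library left out, and 2 rose without caNIK replicate 2.

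**Figure D4:**
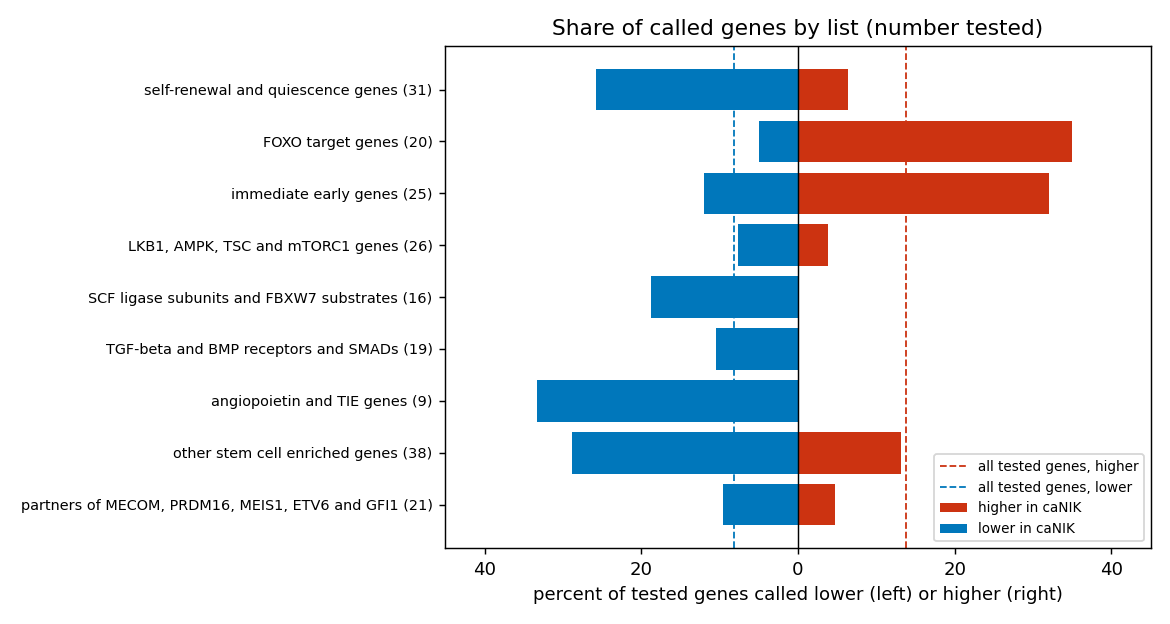
Percent of the tested genes in each list called higher (right, red) or lower (left, blue) in caNIK by edgeR, with the number tested in parentheses; dashed lines are the percent of all tested genes (13.8% higher, 8.21% lower). Of the 31 self-renewal and quiescence genes 25.8% were lower and 6.45% higher.

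The caNIK libraries differed from each other in these genes in 1 direction. In 25 of the 31 tested genes (80.6%) caNIK replicate 2 lay below replicate 1, against 52.8% of all tested genes, and all 8 genes that fell were among them. In control, replicate 2 lay below replicate 1 in 18 of the 31 (58.1%, against 49% of all tested genes), including 6 of the 8. The median log2 difference of replicate 2 from replicate 1 was -0.61 in caNIK and -0.10 in control, against -0.03 and 0 over all tested genes. The median log2 fold change of these genes was -0.85 without caNIK replicate 1 and -0.35 without caNIK replicate 2. Over all tested genes it was -0.013 and -0.02 in these fits. The fit without caNIK replicate 1 keeps only replicate 2, the lower caNIK library in 25 of the 31, so a lower median follows from what is kept. The fall of Robo4, Hlf, Fgd5, Myct1, Eya1, Gfi1 and Angpt1 passed whichever library was left out, in fits whose spread rests on 1 pair of libraries and which therefore say little of stability.

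**Figure D5:**
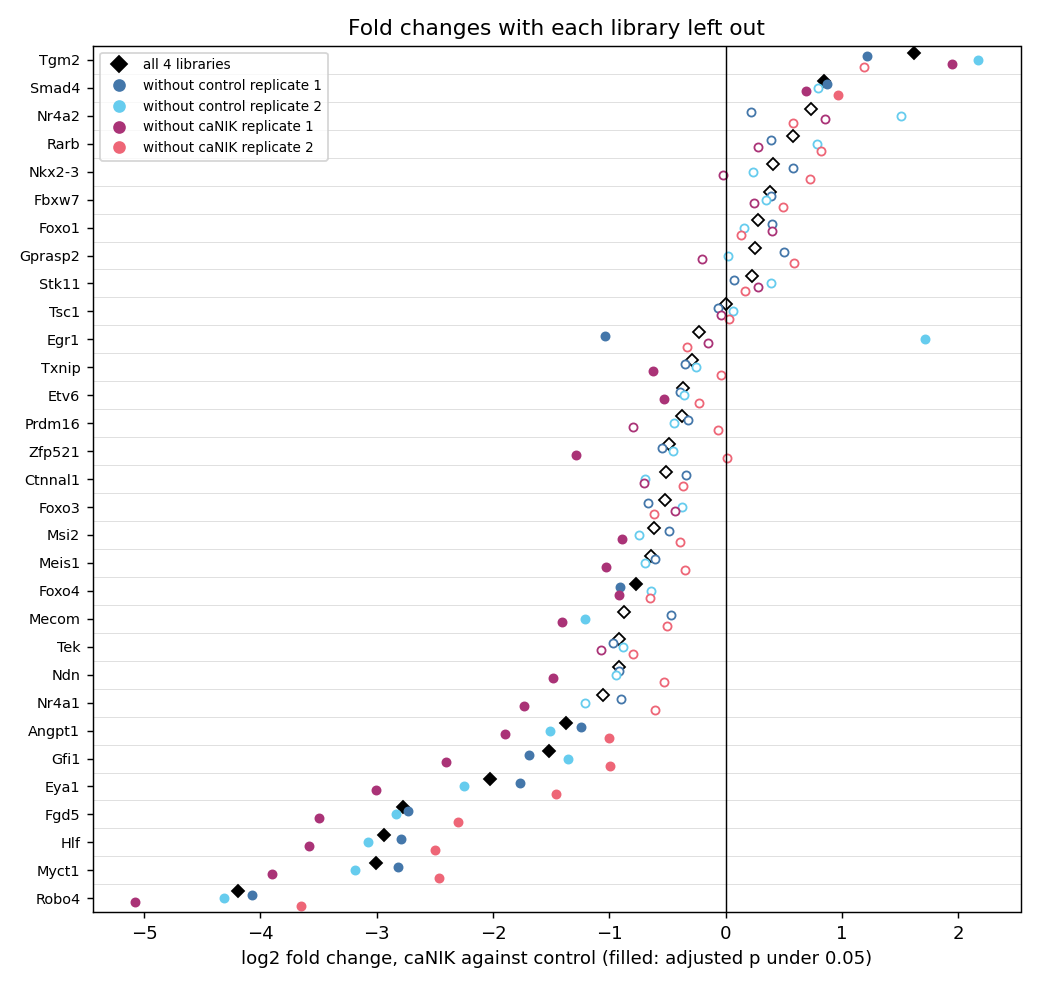
Log2 fold changes, caNIK against control, of the 31 genes with all 4 libraries (diamonds) and with each library left out (circles); filled symbols passed at an adjusted p under 0.05. Values without caNIK replicate 1 lie farthest to the left for most genes that fell, and Egr1 is above 0 only without control replicate 2.

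Markers of the labelled cells and of other blood cells also differed between and within the groups. Kit, which defines progenitors, had 610 and 613 CPM in control and 558 and 506 CPM in caNIK. Of 11 HSPC markers 5 fell (Cd34, Flt3, Runx1, Cd27 and Spi1) and 2 rose (Gata2 and Ly6a). These were 45.5% and 18.2% of the list, against 8.21% lower and 13.8% higher among all tested genes. The list summed to 3225 to 3539 CPM in control, and to 2491 and 1905 CPM in caNIK replicates 1 and 2. Of 16 erythroid markers 11 rose (68.8%, against 13.8% of all tested genes). That list summed to 848 to 1816 CPM in control, and to 4820 and 7827 CPM in caNIK replicates 1 and 2. Of 12 mast cell and basophil markers 10 rose (83.3%, against 13.8%). Their sum was 87.8 to 163 CPM in control, and 2989 and 1530 CPM in caNIK replicates 1 and 2. Summed levels of the other lists ran, in control and caNIK, from 242 to 348 and 478 to 603 CPM for megakaryocytes. Of 11 tested megakaryocyte markers 4 rose (36.4%, against 13.8%) and 2 fell (18.2%, against 8.21%). For B cells the sums ran from 133 to 245 and 55.6 to 99.2 CPM (5 of 10 fell, 50%, against 8.21%). For T and NK cells the sums ran from 94.0 to 177 and 100.2 to 261 CPM (1 of 12 rose, 8.33%, under the 13.8% of all tested genes). Those of macrophages and dendritic cells ran from 29.5 to 55.4 and 89.6 to 105 CPM (3 of 11 rose, 27.3%, against 13.8%). Those of stromal cells, of which the 9 tested did not pass, ran from 64.7 to 189 and 164 to 246 CPM. No marker of these lists was at 0 in all 4 libraries. The part of cell composition in the values of the 32 genes was not tested.

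Set against exon length, the order of levels among the genes changed with genotype. In control, CPM per kilobase of exon (GENCODE M21 models) was highest for Txnip, at 91.3 and 95.9, and for Etv6, at 70.0 and 70.7. Stk11, Angpt1, Msi2 and Hlf followed within 43.5 to 56.1 in each control library, a range in which their order was not stable between libraries. In caNIK, Hlf lay at 8.69 and 4.04 and Angpt1 at 25.1 and 13.3, which moved Hlf from rank 6 to rank 15 of 32 and Angpt1 from rank 4 to rank 7 on the group means. Robo4 moved from rank 16 to rank 30 and Myct1 from rank 12 to rank 27, whereas Tgm2 moved from rank 14 to rank 6. Rarb and Clec1a were the lowest in both groups.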

How the data were processed

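RNA-seq was done on total RNA of sorted HSPC, with 2 control and 2 caNIK libraries grouped by their titles. For each library the authors deposited raw, whole-number counts of reads by gene symbol. The submitters' processing notes name TopHat2 2.1.0, DESeq2 1.10.1, featureCounts 1.5.0 and FastQC, with no role or order, and the build mm9. The sources used here do not give the annotation, the strand setting or how multiply aligned reads were handled, so reads of overlapping or antisense genes cannot be told apart. Totals were 18574452 to 23162766 counts, and Map3k14, which encodes NIK, had 582 to 588 counts in control and 3305 to 3989 in caNIK. Replicates differed beyond sampling noise in control (chi-square over degrees of freedom 20.5) and in caNIK (36.8).

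The tests used edgeR 4.0.16 (R 4.3.3): filterByExpr, TMM scaling, glmQLFit with group as the only term and glmQLFTest (two-sided F test), with Benjamini-Hochberg adjustment over all 14191 tested genes. The SE is the size of the log2 fold change over the root of F. Levels are given in TMM-scaled CPM. On simulated counts for this comparison (median 13931 genes tested), 7% of changes of 1.5-fold, 36.4% of 2-fold and 80.1% of 4-fold were recovered. Of the calls, 3.3% were of unchanged genes. Each simulation changed 200 genes and took the spread of each gene from the trend across genes. With 3129 genes called in the real data, the adjusted threshold is less strict, so recovery may differ. The 32 genes and all lists were chosen with earlier results of these data known. The text names all 32 genes and, from each list of related genes, the 2 called genes with the smallest p (3 where 6 or more were called), except 1 gene that is not reported here; Fos, Fosb, Jun, markers named beyond the defining ones and the ETS and GATA motifs were chosen after the values were seen. Alternatives were DESeq2 1.42.0, limma-voom (limma 3.58.1), other scalings and filters, glmTreat, the replicate number as a block, and each library left out.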

Additional observations from a re-analysis of the deposited data

How the results depend on the processing

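Over the 31 genes and 12 alternatives, 334 values stayed on the same side of the threshold, 11 lost a call, 25 gained one and 1 turned around, that of Egr1 without control replicate 2 (1.71, against -1.04 without control replicate 1). Egr1, not called with all libraries, was also above 0 in limma-voom (0.24) and with the replicate block (0.28). Against a fold change of 1.5, 1815 of all genes passed and 458 of them were lower; among the 32 genes 4 were lower (Robo4, Hlf, Fgd5 and Myct1) and 0 higher in edgeR's glmTreat, where 2 were higher at an unadjusted p under 0.05, and DESeq2 and limma-voom each called 2 higher. With 1 library left out, 1 to 2 of the 32 were higher and 7 to 16 lower, with a median log2 fold change of -0.85 to -0.35; the cause was not tested. With the replicate number as a block, 1766 of all genes and 14 of the 32 were lower, all 8 lower ones together with Mecom, Meis1, Tek, Msi2, Foxo3 and Nr4a1. Deviations of same-numbered libraries from their group means correlated at 0.255 over all tested genes and at 0.555 over the 31, but with 2 pairs and no label that ties them the libraries share only a number. Without a filter on low counts 12 were lower. Depth left Rarb undecided. Clec1a was too low for the main test, and its interval of 1.54 to 18.5, all on the side of a fall, covers counting error only. In the simulated counts, in which 200 genes were changed, most changes of 2-fold or less were not recovered. More genes were called in the real data, so these shares may not hold for it.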
